A study of Mus musculus with 36 samples.

Results

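The data describe what the ornithine decarboxylase inhibitor DFMO (difluoromethylornithine) did to gene expression in mouse non-pathogenic Th17 cells, called Th17n cells here. They rest on 12 of 36 deposited samples, which are 6 of 18 RNA-seq libraries, chosen by their labels for cell type and treatment. Each library was sequenced in 2 runs, whose counts were summed. The T cells came from the spleens of 3 C57BL/6 animals whose age and sex the labels do not give. Naive CD4+ T cells were sorted by their surface markers (CD44- and CD25- among them), put on plates coated with antibodies to CD3 and CD28 (1 µg/ml each) and given IL-6 at 25 ng/ml with TGFb1 at 2 ng/ml. Cultures of each animal were kept with vehicle or with 100 µM DFMO, harvested at 68 h and sorted for live cells. Where a comparison is drawn with the other lineages of the same animals, pathogenic Th17 (Th17p) cells were given IL-1b and IL-23 (20 ng/ml of each) in place of TGFb1 beside the same IL-6. Induced regulatory T (iTreg) cells were given TGFb1 at 2 ng/ml without IL-6. Both lineages grew on the same coated plates, with 3 vehicle and 3 DFMO libraries each. All groups are cells differentiated in culture, and the labels name no transgene or deletion. The design asks how a block of polyamine synthesis changes the transcriptome of each fate.

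Polyamines (putrescine, spermidine and spermine) are small cations that growing cells need for translation and nucleic acid function. Odc1 makes putrescine from ornithine, and DFMO inactivates it. Synthesis is held in a loop in which polyamines induce antizyme, which sends Odc1 to the proteasome and blocks polyamine uptake, and spermidine also donates the group that turns a lysine of the translation factor eIF5A into hypusine. Th17n cells secrete IL-17 but also IL-10, and share the signal TGF-beta with regulatory T cells, whose master transcription factor is Foxp3.

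A level is given in CPM, the count of a gene scaled by its library's total and edgeR's TMM factor, and values in a series are those of animals 1, 2 and 3. A change is the log2 fold change of DFMO over vehicle ± its standard error (SE), with n = 3 animals per group. It is called (rose, fell, higher or lower) where the quasi-likelihood F-test, run by edgeR over 11526 genes, gave an adjusted p (Benjamini-Hochberg) under 0.05. The 6 libraries held between 8557398 and 11503061 counts. The sorted population carried its CD4 T cell genes: the 15 listed identity genes summed to between 4895 and 5149 CPM in vehicle and between 4705 and 4733 CPM in DFMO libraries. Among markers of other cells, Lyz2, Mpo, S100a8, S100a9, Ncr1, Klrb1c, Gzmk, Blk and the beta globin genes Hbb-bs and Hbb-bt were at 0 counts in all 6 libraries. The summed markers of each of the 6 other cell types listed lay lower with DFMO, without overlap. The 14 myeloid markers summed to between 226.7 and 276 CPM in vehicle and between 122.3 and 135 CPM in DFMO libraries. The 10 B cell markers summed to between 10.3 and 18.03 CPM in vehicle and between 5.41 and 10.1 CPM with DFMO. The 7 CD8 T cell markers summed to between 21.6 and 29.0 CPM in vehicle and between 10.8 and 17.4 CPM with DFMO. For NK and innate lymphoid cells the sums ran from 3.28 to 3.68 CPM in vehicle and from 0.634 to 1.38 CPM with DFMO. For erythroid cells and platelets they ran from 1.40 to 1.97 CPM and from 0.181 to 0.576 CPM. Gamma delta T cell markers summed to between 0.0875 and 0.437 CPM in vehicle, all of it Sox13, and were at 0 in all DFMO libraries. Other sums also rested on few genes. The myeloid fall lay mostly in H2-Ab1, while Cst3, the other abundant member, was not called (levels below). The erythroid and platelet sum was mostly Itga2b. The part of these other cell types in the results below was not tested. In bulk RNA fewer cells of a type and less RNA per cell cannot be told apart. The DFMO library of animal 3 lay farthest from the other libraries of its group (root mean square distance 0.536 on the log2 scale, against 0.457 to 0.499 for the other 5).

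DFMO changed the expression of many genes in Th17n cells. Of 11526 genes tested, 2626 were higher (22.8%) and 2726 lower (23.7%), 46.4% in either direction. Strong decreases outnumbered strong increases: 120 genes rose and 467 fell at least 4-fold, against 607 and 1199 at least 2-fold. The median over all genes was -0.02, and 3088 of the called genes (57.7%) were also called under each of the 12 alternative settings that tested them. Counts for the gene groups below are to be read against these shares. Members and lists were chosen with earlier results of these data known, so the counts only describe the lists chosen.

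The polyamine loop moved at most of its steps, while Odc1 itself was not called (the plot of polyamine gene levels by library). Of 24 listed genes of polyamine synthesis, turnover and transport found in the table, 17 were tested, 6 were higher and 5 lower (Oaz1, Oaz2, Smox, Paox and the carrier gene Slc12a8). Odc1 stood at 163, 173 and 165 CPM in vehicle and at 183, 184 and 206 CPM in DFMO libraries. The groups did not overlap, but the difference of 0.20 ± 0.13 did not pass (adjusted p = 0.25, called when fitted on these 2 groups alone). Amd1, which supplies the aminopropyl groups for spermidine and spermine, was at 109, 125 and 126 CPM in vehicle and 399, 445 and 429 CPM in DFMO libraries, a rise of 1.82 ± 0.09 (adjusted p = 5.2e-12). Azin1, which binds antizyme and so spares Odc1, went from 67.4, 71.3 and 93.1 to 239, 238 and 245 CPM (a rise of 1.64 ± 0.10). The antizyme genes went the other way, with Oaz1 falling by 1.29 ± 0.07 and Oaz2, at 71, 80.3 and 64.2 CPM in vehicle and 9.1, 12.7 and 9.87 CPM with DFMO, by 2.76 ± 0.17. Each of these 4 genes had its DFMO libraries on 1 side of its vehicle libraries in every animal.

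The enzymes that consume polyamines and the carriers that move them showed further changes. Smox, which oxidises spermine, stood at 201, 208 and 234 CPM in vehicle and 38.8, 30.7 and 56.4 CPM in DFMO libraries (a fall, -2.35 ± 0.23). Paox, which oxidises acetylated polyamines, went from 36.5, 36.4 and 42.9 to 19.6, 30.1 and 17.9 CPM and fell by 0.77 ± 0.19 (-0.55 and not called without animal 3). Atp13a3, a transporter that takes part in polyamine uptake, was at 36.5, 36.1 and 31.7 CPM in vehicle and 65.4, 75.2 and 67.9 CPM with DFMO, a rise of 1.00 ± 0.14. Sat1, which acetylates spermidine and spermine, showed no call: its levels of 373, 23.9 and 351 CPM in vehicle and 275, 34.1 and 335 CPM with DFMO set animal 2 apart from animals 1 and 3 under either treatment. Sms, the spermine synthase, was at 147, 175 and 173 CPM and 183, 185 and 202 CPM (0.21 ± 0.08, adjusted p = 0.052, and 0.026 with the animal as a block). Srm, the spermidine synthase, spread widely over the DFMO animals, with 19.9, 12.7 and 27.9 CPM in vehicle and 81.9, 54.3 and 239 CPM with DFMO. It was called higher at 2.62 ± 0.68 (adjusted p = 0.0069), and not without animal 1 (2.85) or animal 2 (2.75). With the animal as a block Srm was called at 2.47 (adjusted p = 2.8e-05 in edgeR's test).

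**Figure D1:**
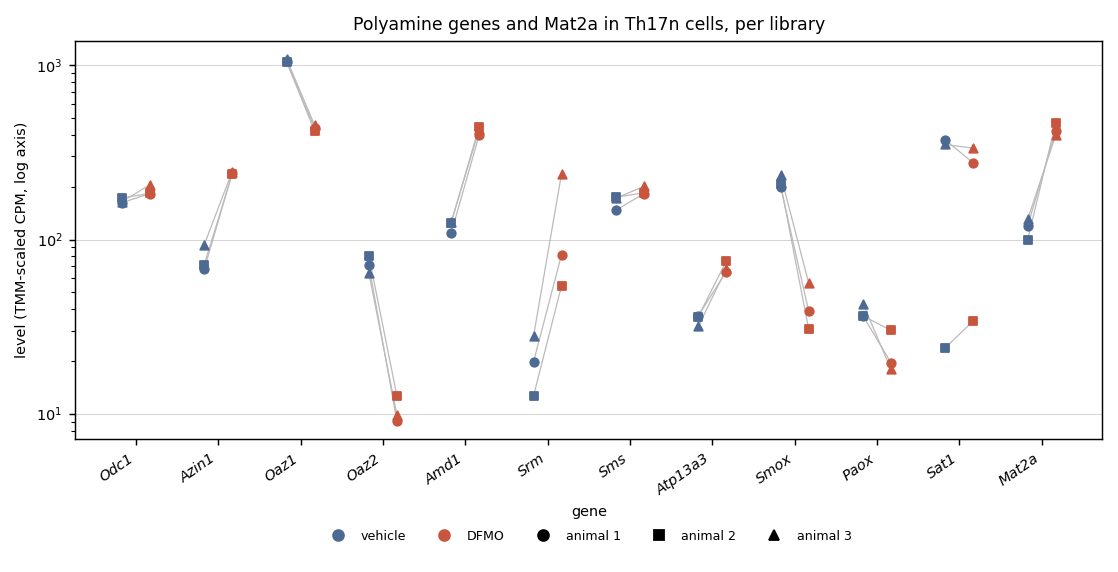
Levels of 11 polyamine genes and Mat2a in the 6 Th17n libraries, on a log axis of TMM-scaled CPM; blue points are vehicle and red points DFMO libraries, the marker shape gives the animal and grey lines join libraries of the same animal. Amd1, Azin1, Atp13a3 and Mat2a lay higher and Oaz1, Oaz2, Smox and Paox lower with DFMO in all 3 animals, and the Sat1 level of animal 2 lay apart under both treatments.

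Genes next to the polyamine pathway moved as well. Mat2a makes S-adenosylmethionine, the substrate of the Amd1 enzyme, and its level went from 119.7, 100.0 and 131 to 422, 467 and 397 CPM, with no overlap (1.87 ± 0.15, adjusted p = 3.6e-08). Its regulatory subunit Mat2b fell by 0.45 ± 0.09. In the methionine cycle and salvage list, 5 of 15 tested genes were higher (Mat2a, Mtr, Mtrr, Mtap and Apip) and 3 lower (Mat2b, Ahcyl1 and Cth). Apip, of the salvage route that recovers methionine from the by-product of polyamine synthesis, rose by 0.69, whereas Cth, which makes cysteine from cystathionine, was at 49.5, 59 and 65.3 CPM in vehicle and 12.4, 13.6 and 9.33 CPM in DFMO libraries and fell by 2.30 ± 0.18. The genes of eIF5A hypusination were higher in 3 of 4 cases and lower in none (also none at an unadjusted p under 0.05, with DESeq2 or with limma). Eif5a went from 2344, 2299 and 2227 to 3216, 3012 and 3048 CPM (0.43 ± 0.07) and Dohh, which completes hypusine, from 87, 82.8 and 85.3 to 152, 147 and 147 CPM (0.81 ± 0.09), with no overlap between groups. Dhps, which transfers the spermidine group, was called higher at 0.29 ± 0.10 (adjusted p = 0.023), with its call lost without any 1 of the animals (0.31, 0.26 and 0.32 without animals 1, 2 and 3). The call was also lost with no filter on low counts (0.29) and in run 1 alone (0.24).

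Cytokine genes split: IL-17 genes overlapped between groups while several others rose. Of 19 tested Th17 cytokine and chemokine genes, 8 were higher and 3 lower (5 lower without animal 3). Il17a stood at 166, 226 and 251 CPM in vehicle and at 83.8, 41.7 and 211 CPM in DFMO libraries. Each animal lay lower with DFMO than with vehicle, animal 3 by least. The groups overlapped, and the difference of -0.94 ± 0.47 did not pass (adjusted p = 0.12). It was called lower without animal 3 (-1.65) and on log2 TPM (-1.13). Il17f, at 855, 594 and 771 CPM in vehicle and 520.2, 548 and 885 CPM with DFMO, overlapped and was not called (-0.18 ± 0.36). Il22 was at 7.57, 6.88 and 6.04 CPM in vehicle and 6.1, 2.56 and 64.4 CPM with DFMO, where animal 3 alone was high (not called, 1.86 ± 1.04). The same DFMO library held all 24 counts of Ifng found in the 6 libraries, which left Ifng untested.

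The cytokines that rose belong to several helper programmes (the plot of T helper gene levels by library). Il9, a growth factor for mast cells made by Th9 and Th17 cells, was at 202, 185 and 184 CPM in vehicle and 1914, 1551 and 1494 CPM in DFMO libraries, a rise of 3.12 ± 0.26 (adjusted p = 4.4e-07; chromosome 13, 56479277 to 56482246 on GRCm38). Il2, the T cell growth factor (chromosome 3, 37120523 to 37125959), went from 42.8, 68.3 and 66.6 to 514, 377 and 667 CPM, a rise of 3.13 ± 0.32 (adjusted p = 3.6e-06). Il10, an anti-inflammatory cytokine (chromosome 1, 131019845 to 131024974), went from 3.42, 2.18 and 1.58 to 21.1, 25.1 and 10.1 CPM (2.98 ± 0.54). All 3 DFMO libraries lay above all vehicle libraries for these genes, with Il10 lowest in animal 3 of either group. Ccl20, the ligand of the Th17 homing receptor Ccr6, was at 3.17, 7.43 and 11.3 CPM in vehicle and 61.2, 45.1 and 62 CPM with DFMO, and rose by 2.92 ± 0.67 (not called without animal 1, 2.52). Ccl3, a chemokine for macrophages and T cells, rose by 4.54 ± 0.61 from a low vehicle level of 0.122, 0.874 and 1.14 CPM to 13.4, 12.5 and 27.5 CPM. Tnf, at 81.4, 92.2 and 105 CPM in vehicle and 292, 252 and 299.9 CPM with DFMO, rose by 1.60 ± 0.10, and Il21, the autocrine Th17 cytokine, by 0.77 ± 0.17.

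**Figure D2:**
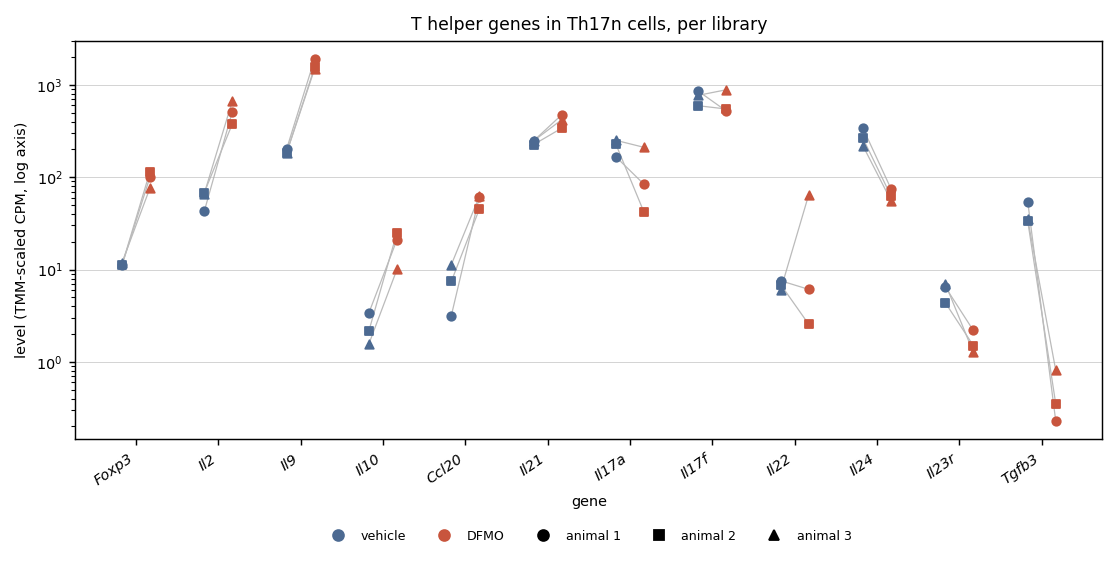
Levels of 12 T helper genes in the 6 Th17n libraries, on a log axis of TMM-scaled CPM; blue points are vehicle and red points DFMO libraries, the marker shape gives the animal and grey lines join libraries of the same animal. Foxp3, Il2, Il9, Il10, Ccl20 and Il21 lay higher and Il24, Il23r and Tgfb3 lower with DFMO in all 3 animals, while Il17a, Il17f and Il22 overlapped between groups.

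The Th17 cytokine genes that fell were Tgfb3, Ccl5 and Il24. Tgfb3 (chromosome 12, 86056745 to 86079041), a TGF-beta isoform that Th17 cells make themselves, was at 54.5, 33.5 and 35.1 CPM in vehicle and at 0.23, 0.353 and 0.815 CPM in DFMO libraries. It fell by 6.38 ± 0.41 (adjusted p = 1.9e-10), with every DFMO library below 1 CPM. Ccl5, a chemokine of effector T cells, fell by 5.61 ± 0.89, from 17.3, 40.0 and 28.2 to 0, 1.59 and 0 CPM. Il24, a cytokine of the IL-10 family, was at 338, 263 and 218 CPM and 74.7, 62.6 and 55.8 CPM and fell by 2.08 ± 0.27. Of 11 tested genes listed as marks of non-pathogenic Th17 cells, 6 were higher (3 without animal 2) and 1, Ikzf3, lower (none without any 1 of the animals). Ikzf3 also lost its call with no filter on low counts, without scaling factors, in run 1 alone and on log2 TPM. Besides Il9 and Il10 the higher genes included Cd5l, a lipid regulator, at 13.9, 12.3 and 11.5 CPM in vehicle and 51.8, 34.6 and 100.0 CPM with DFMO (2.31 ± 0.54, not called without animal 3, 1.72). Slc16a6, a carrier for monocarboxylates, was called higher at 0.51 ± 0.13 (not called without animal 2, 0.45). Of 20 tested genes listed as marks of pathogenic Th17 cells, 3 were higher (Ccl3, Ccl4 and Cd5l, or 1 gene without animal 3) and 8 lower. Among the lower ones were Tgfb3, Ccl5, Il23r and Pdk1. Cd5l stands in both lists, so its rise cannot be read as a rise of pathogenic marks. Csf2, the defining cytokine of pathogenic cells, had 5 counts in the 6 libraries together and was not tested.

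Genes of the Th17 receptor list moved in both directions, with 5 of 19 tested higher and 6 lower. Il6st, Ccr6, Tgfbr1, Slamf6 and Il1rn (a receptor antagonist gene) were the higher ones (1 without animal 2, 2 with no filter on low counts). Il23r, which stabilises Th17 cells, was at 6.47, 4.37 and 7 CPM in vehicle and 2.19, 1.5 and 1.27 CPM in DFMO libraries, a fall of 1.87 ± 0.30 with no overlap. Il12rb2, the signalling chain of the IL-12 receptor, went from 148, 148 and 121 to 15.9, 10.1 and 14.3 CPM (a fall, -3.38 ± 0.40). Tgfbr1, a TGF-beta receptor chain, went from 21.1, 18.9 and 18.8 to 34, 44 and 31.5 CPM and rose by 0.90 ± 0.20. Ccr6, the receptor for Ccl20, overlapped between groups at 35.6, 37.3 and 55.5 and 57, 55.4 and 67.1 CPM. It passed at 0.48 ± 0.19 (adjusted p = 0.044) but not without animal 1 (0.41) or animal 2 (0.45). Nor did it pass with no filter on low counts (0.48) or in run 1 alone (0.45). The receptor gene Il1r1 was not called (-0.78 ± 0.60).

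Transcription factors of the Th17 programme were lower more often than higher: of 23 tested, 10 fell (5 without animal 2, 6 on log2 TPM) and 2 rose (between 0 and 4 over the alternatives), Nfatc2 and Runx1. Rora, a nuclear receptor of the Th17 programme, fell by 1.23 ± 0.24, from 175, 159.8 and 187 to 64.5, 51.7 and 105 CPM. Stat3, which carries the IL-6 signal, fell by 0.66 ± 0.09, from 765, 738 and 724 to 428, 494 and 483 CPM. Hif1a, which drives glycolytic and hypoxia genes, went from 1099.9, 1048 and 1079 to 429, 407 and 513 CPM and fell by 1.26 ± 0.13 (adjusted p = 2.7e-07). Nfil3 fell by 1.46 ± 0.23 and Nfkbiz by 0.59 ± 0.12. Batf (-0.09 ± 0.12), Irf4 (-0.09 ± 0.08) and Ahr (0.12 ± 0.26) overlapped and were not called. Maf, a factor for IL-10 production, was not called either (0.51 ± 0.38), though its groups did not overlap. It was called when the 2 groups were fitted alone (0.52) and on log2 TPM (0.59).

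Regulatory T cell genes did not move as a block. Of 27 tested, 5 were higher (Foxp3, Nrp1, Gpr15, Socs2 and Gpr83) and 11 lower. Foxp3 (chromosome X, 7573644 to 7595245) was at 11.1, 11.1 and 11.8 CPM in vehicle and 100.4, 115 and 76.2 CPM in DFMO libraries, a rise of 3.09 ± 0.34 (adjusted p = 7.4e-06). Nrp1, a semaphorin receptor found on many regulatory T cells, went from 10.4, 6.77 and 7.97 to 72.7, 88.2 and 54.8 CPM (3.11 ± 0.43). Gpr15, a homing receptor for the large intestine, went from 1.83, 1.09 and 2.36 to 12.8, 15 and 7.61 CPM (2.72 ± 0.61). In these 3 genes the DFMO libraries lay above every vehicle library, with animal 3 the lowest of the DFMO libraries. Among the decreases were receptors of the TNF family: Tnfrsf9 (4-1BB) was at 774, 584 and 659 CPM in vehicle and 19.6, 30.2 and 43.2 CPM with DFMO (a fall, -4.43 ± 0.27), and Tnfrsf18 (GITR) fell by 2.06 ± 0.16, from 1049, 985 and 900.2 to 214, 199 and 289 CPM. Satb1, an organiser of T cell chromatin, fell by 1.76 ± 0.11, from 574, 579 and 501 to 149, 158 and 182 CPM, and Il10ra, a chain of the IL-10 receptor, by 2.32 ± 0.29. Il2ra (-0.19 ± 0.10), Ikzf4 (-0.07 ± 0.12) and Ikzf2 (0.63 ± 0.37) were not called, and Ctla4 (-0.26 ± 0.16) was called, at -0.48, when animal 3 was left out.

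The lists of other helper fates differed. No tested Th1 gene of 15 was higher in edgeR's test (also none at an unadjusted p under 0.05, with DESeq2 or with limma) and 7 were lower, among them Runx3, a partner of T-bet, which fell by 1.19 ± 0.20 from 102, 111 and 106 to 40.2, 42.3 and 56.9 CPM, and the chemokine receptor Cxcr3, which fell by 1.53 ± 0.22. Tbx21 (T-bet) itself, at 3.54, 5.68 and 6.48 and 7.83, 6.18 and 5.25 CPM, overlapped (0.27 ± 0.46). Of 6 tested Th2 genes, 4 fell, including Gata3, the Th2 master factor, from 8.18, 7.43 and 10.9 to 1.96, 2.38 and 4.62 CPM (-1.55 ± 0.29), and Stat6 (-0.51 ± 0.09); Il4ra and Il24 were the others. Ccr4 was called higher at 0.34 ± 0.10 (not called without animal 3, 0.30). In the follicular helper list, 5 of 14 were higher (Pdcd1, Il21, Cd40lg, Slamf6 and Btla; 3 without animal 2) and 3 lower (Cxcr5, Sh2d1a and Tcf7; 1 without animal 2). Pdcd1, the inhibitory receptor PD-1, went from 49.9, 45.6 and 62.1 to 157, 139.8 and 145 CPM (1.48 ± 0.14), Btla rose by 0.60 ± 0.11, and Cxcr5, the receptor that leads T cells to follicles, fell by 1.32 ± 0.27. Bcl6 was not called (0.25 ± 0.22).

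Receptor signalling genes split by pathway. Among 23 genes induced by T cell activation, 8 were higher (5 without animal 1, 4 without animal 2) and 3 lower (Tnfrsf9, Tnfrsf4 and Dusp6). Egr2, an early factor of antigen receptor signalling, was at 17.1, 16.2 and 26.1 CPM in vehicle and 63.8, 70.0 and 71.1 CPM with DFMO (1.78 ± 0.18), and Cd69, an early surface marker, rose by 0.80 ± 0.10, from 84.9, 97.3 and 92.3 to 169, 153 and 155 CPM. The costimulatory receptor gene Tnfrsf4 (OX40) fell by 0.62 ± 0.14. Of 18 targets of IL-6 and STAT3 or IL-2 and STAT5, 3 were higher (Socs2, Il21 and Myc) and 8 lower (5 without animal 1). Socs3, the feedback inhibitor of IL-6 signalling, went from 559, 521 and 503 to 250.3, 238 and 216 CPM and fell by 1.17 ± 0.10, and Pim2, a survival kinase, fell by 2.01 ± 0.12 from 252, 301 and 234 to 64.5, 64.9 and 66.1 CPM. Of 16 TGF-beta response genes, 5 were higher (Pmepa1, Id1, Tgfbr1, Ski and Skp2) and 4 lower (Ltbp3, Bhlhe40 and Tgif1 among them; 2 lower without animal 1 or without animal 2). Pmepa1, a brake on TGF-beta signalling, rose by 1.40 ± 0.20 and Id1 by 1.33 ± 0.24, while Ltbp3, which stores TGF-beta in the matrix, fell by 3.99 ± 0.74. Inhibitory receptor and ligand genes counted 5 higher and 3 lower of 13. Cd96 (1.78 ± 0.20), the PD-1 ligand gene Pdcd1lg2 (1.63 ± 0.18), Pdcd1, Btla and Pdpn rose, and Lag3, Tigit and Vsir (VISTA) fell.

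Genes of naive cells and of homing were lower in 8 of 24 cases (5 without animal 2 or without animal 3) and higher in 4 (Itgb1, Ccr4, Gpr15 and Cd6). Ccr7, which guides T cells to lymph nodes, went from 2109.9, 2032 and 1822 to 986, 1008 and 966 CPM and fell by 1.01 ± 0.16. Il7r, the IL-7 receptor, was called lower at -1.35 ± 0.51 but not without animal 2 (-1.16) or animal 3 (-1.46). Nor was it called with no filter on low counts (-1.35) or in run 2 alone (-1.23). Tcf7 was called lower at -0.36 ± 0.12 but not without animal 2 (-0.38) or animal 3 (-0.26). Its call was also lost in run 1 alone (-0.30) and on log2 TPM (-0.26). Cd6, a costimulatory receptor, rose by 0.63 ± 0.09, and Lef1 (0.04 ± 0.08) and S1pr1 (-0.15 ± 0.19) were not called. Among the 15 genes of CD4 T cell identity, 7 were lower (4 without animal 2) and 2, Cd5 and Lat, higher (1 without animal 1 or without animal 3). Cd4 fell by 0.55 ± 0.07, from 403, 373 and 373 to 243, 253 and 288 CPM, and Cd3d by 0.65 ± 0.08, while Lat, the adaptor of the antigen receptor, rose by 0.68 ± 0.08, from 313, 307 and 312 to 501, 506 and 489.9 CPM.

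Genes that build ribosomes rose almost throughout (the plot of list members). Of 44 tested ribosome biogenesis genes, 40 were higher (90.9%) and none lower in edgeR's test, with a median log2 fold change of 0.93. At an unadjusted p under 0.05 edgeR had 1 member lower, and limma none. The fit with the animal as a block and both fits with DESeq2's scaling each called 1 member lower, Npm1 (-0.15 ± 0.07 here, not called), which encodes an abundant nucleolar chaperone. Nolc1, a nucleolar scaffold, was at 113, 121 and 124 CPM in vehicle and 335, 340.1 and 314 CPM in DFMO libraries (1.47 ± 0.09, adjusted p = 1.7e-10). Dkc1, which modifies ribosomal RNA, went from 154, 188 and 190.1 to 476, 442 and 438 CPM (1.35 ± 0.09), and Nop56, a core protein of the particles that methylate it, from 213, 206 and 251 to 608, 557 and 521 CPM (1.33 ± 0.09). Rrp9 rose by 1.34 ± 0.10. Each of these genes had all DFMO libraries above all vehicle libraries, and the groups did not overlap in 40 of the 44, against 56.3% of all genes tested. Myc, a driver of these genes, was called at 0.31 ± 0.09 but not without animal 1 (0.29) or animal 2 (0.27).

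**Figure D3:**
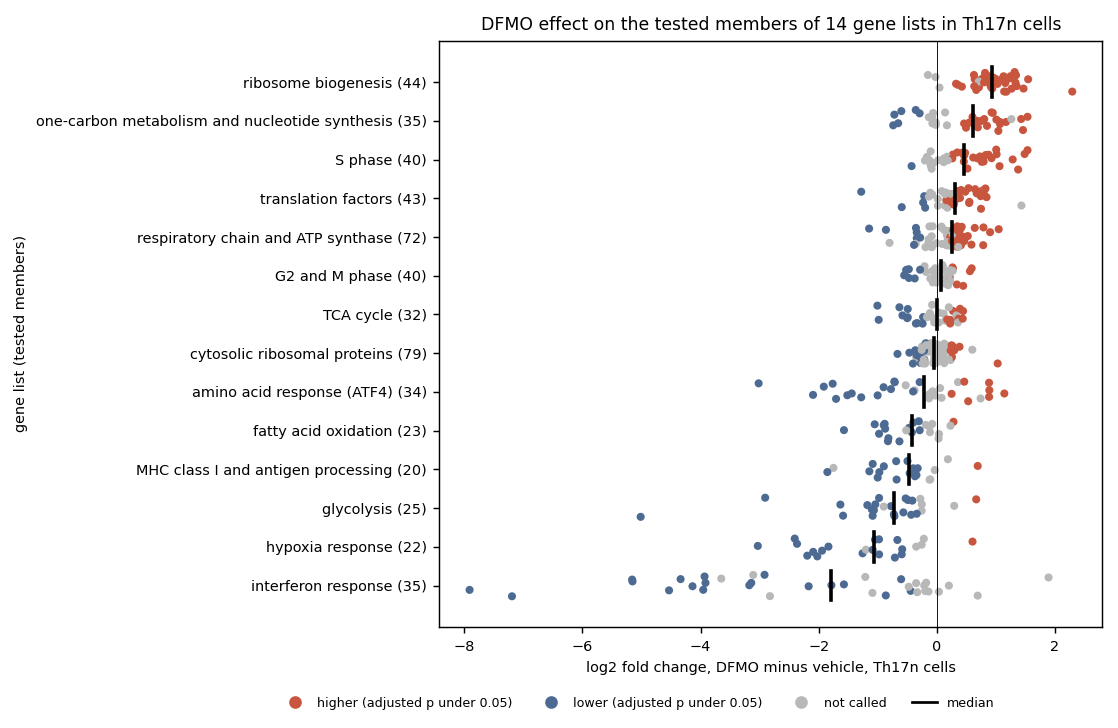
Log2 fold change (DFMO minus vehicle, x axis) of every tested member of 14 gene lists in Th17n cells, with red points for called increases, blue points for called decreases, grey points for members not called and a black line at each list's median. Medians run from 0.93 for ribosome biogenesis to -1.79 for the interferon response.

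The ribosomal proteins themselves did not follow. Of 79 tested cytosolic ribosomal protein genes, 7 were higher (11 with the animal as a block, and between 1 and 18 over the other alternatives) and 14 lower (9 without animal 1, 2 without animal 2), with a median of -0.05. They summed to between 134920 and 155340 CPM in vehicle and between 131280 and 150350 CPM in DFMO libraries. Rpl24 fell by 0.47 ± 0.10, from 1627, 1610.3 and 1319 to 1234, 1014 and 1048 CPM, and Rps29 rose by 1.03 ± 0.21 from a low level of 7.69, 9.4 and 5.86 to 14.7, 14.7 and 17.1 CPM. Rpl13a, called at -0.37, was not called without animal 2 (-0.26). Ribosomal protein genes have many near-identical copies in the genome, so their levels depend on how the authors' counting shared reads. Of 43 translation factor genes, 25 were higher and 5 lower (Eif4ebp1, Eif3m, Eif3c, Eif3h and Eef2; 2 without animal 1, without animal 2 or on log2 TPM, 3 without animal 3), with a median of 0.31. Eif1, which helps choose the start codon, went from 607, 633 and 616 to 1071, 955 and 1072 CPM (0.74 ± 0.06) and Eef1d, of the elongation complex, from 291, 275 and 255 to 512, 475 and 482 CPM (0.84 ± 0.07). Eif3m fell by 0.60 ± 0.06, and Eif4ebp1, a brake on cap-dependent translation, by 1.28 ± 0.13, from 396, 369.6 and 352 to 137, 182 and 140.1 CPM.

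Nucleotide and DNA synthesis genes were higher more often than lower. Of 35 genes of one-carbon metabolism and nucleotide synthesis, 20 were higher and 6 lower, with a median of 0.60. Nme1, a nucleoside diphosphate kinase, went from 219.8, 231 and 215 to 629.7, 595 and 600.5 CPM (1.46 ± 0.11), and the purine synthesis genes Pfas (92.4, 97.1 and 112 to 249, 303 and 256 CPM, 1.43 ± 0.12) and Gart (1.01 ± 0.08) rose as well. Of 40 S phase genes, 26 were higher and 1, Rfc3, lower, with a median of 0.46. Rrm2, the regulated subunit of ribonucleotide reductase, was at 218, 214 and 254 CPM in vehicle and 642, 674 and 669 CPM with DFMO (1.53 ± 0.11, adjusted p = 8.3e-10). Cdc6, which licenses replication origins, went from 45.1, 42.8 and 48.5 to 111, 127 and 115 CPM (1.37 ± 0.10), and Mcm2 of the replicative helicase from 227, 231 and 259 to 489, 493 and 456 CPM (1.00 ± 0.08). No overlap between groups was seen for these 3 genes. Genes of G2 and M phase were balanced at 7 higher (4 without animal 1, 1 without animal 2) and 7 lower of 40, with Birc5 higher (0.59 ± 0.11) and Cenpa (-0.55 ± 0.08) and Aurkb (-0.51 ± 0.09) lower. Mki67, the proliferation marker, was at 254, 241 and 254 CPM in vehicle and 278, 312 and 257 CPM with DFMO and was not called (0.18 ± 0.10).

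Cell cycle regulators and p53 targets went in both directions. Of 26 cell cycle regulators, 9 were higher and 7 lower. E2f8 (1.57 ± 0.20) and E2f3 (1.04 ± 0.15), factors of the G1 to S transition, rose, while Cdkn2d, an inhibitor of Cdk4 and Cdk6, fell by 0.78 ± 0.07, from 261, 265 and 246 to 148, 148 and 154 CPM, and Rbl2, a pocket protein of resting cells, by 0.97 ± 0.13. Cdkn1a (p21) stood at 493, 484 and 416 CPM in vehicle and 305, 173 and 305 CPM with DFMO and was called lower at -0.83 ± 0.22 (not without animal 1, -0.90). Of 33 p53 targets, 13 were higher (8 without animal 3) and 9 lower. Trp53, which encodes p53, rose by 0.78 ± 0.07, from 177, 181 and 187 to 318, 325 and 294 CPM, and Aen, an apoptotic nuclease, by 0.90 ± 0.12, whereas Sesn1 (-1.47 ± 0.14) and Trp53inp1 (-0.96 ± 0.11) fell. Apoptosis regulators counted 5 higher (Bax, Diablo, Bcl2a1b and Bcl2l1 among them; 3 without animal 2) and 8 lower of 28. The survival genes Bcl2 and Mcl1 fell by 1.16 ± 0.10 and 0.73 ± 0.09, the death effector gene Bcl2l11 (Bim) by 2.67 ± 0.31, from 17.8, 12.6 and 8.75 to 3.11, 1.94 and 1.18 CPM, and the death effector gene Bax rose by 0.68 ± 0.12.

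Most of the listed glycolysis and hypoxia genes fell. Of 25 glycolysis genes, 19 were lower (76%) and 1, the lactate carrier gene Slc16a1, higher (2 higher without animal 1 and when fitted on the 2 groups alone), with a median of -0.73. The list summed to between 49364 and 50450 CPM in vehicle and between 28059 and 32565 CPM in DFMO libraries, with no overlap. Gpi1, which makes fructose 6-phosphate, was at 1342, 1301 and 1314 CPM in vehicle and 543, 596 and 611 CPM with DFMO and fell by 1.18 ± 0.08 (adjusted p = 6.9e-10). Pgk1 went from 4811, 4439.8 and 4547 to 2048, 2214 and 2433 CPM (-1.04 ± 0.11), and Pfkm, a muscle-type phosphofructokinase, fell by 1.59 ± 0.17. Aldoc, an aldolase isoform (chromosome 11, 78322968 to 78327781), showed the largest decrease of the list, from 212, 184 and 178 to 5.07, 4.68 and 7.88 CPM (a fall, -5.01 ± 0.25). Of 22 hypoxia response genes, 17 were lower (77.3%) and 1, Car12, higher (none without animal 3), with a median of -1.07. Besides Hif1a, the mitophagy receptor gene Bnip3l fell by 1.84 ± 0.14, from 579.7, 508 and 477 to 125, 129 and 184 CPM, the disulfide oxidase gene Ero1l by 2.03 ± 0.15, from 1016, 970.2 and 929 to 223, 242 and 250.2 CPM, and Adm (adrenomedullin) by 3.03 ± 0.37, from 9.76, 8.41 and 6.92 to 1.38, 0.706 and 0.996 CPM. Some genes stand in both lists, Pdk1 (-1.09 ± 0.14) among them.

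Hypoxia factors bind a short core in promoters, which is shown here for the lower members of the hypoxia list with the smallest p whose promoter holds it. The promoters are RefSeq's (GRCm38.p6), 250 bases before to 50 after the gene start, 5′ to 3′ on the gene's strand, with each match to ACGTG on either strand in capitals (overlapping matches run together, and every CACGTG holds it).
Hif1a, chr12:73907617-73907916, plus strand: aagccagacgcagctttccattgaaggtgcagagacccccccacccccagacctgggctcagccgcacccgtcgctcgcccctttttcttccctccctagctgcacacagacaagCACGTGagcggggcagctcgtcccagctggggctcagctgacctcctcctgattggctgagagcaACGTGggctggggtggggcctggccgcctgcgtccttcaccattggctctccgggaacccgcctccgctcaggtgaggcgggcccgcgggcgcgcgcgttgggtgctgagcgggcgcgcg
P4ha2, chr11:54100674-54100973, plus strand: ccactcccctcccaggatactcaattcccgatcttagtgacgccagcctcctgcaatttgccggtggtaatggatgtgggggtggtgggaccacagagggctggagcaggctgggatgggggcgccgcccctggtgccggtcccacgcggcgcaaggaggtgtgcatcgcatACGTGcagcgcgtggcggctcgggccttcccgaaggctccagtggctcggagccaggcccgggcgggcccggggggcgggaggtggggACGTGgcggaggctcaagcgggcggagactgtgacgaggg
The Hif1a promoter held 3 matches and that of P4ha2, a collagen prolyl hydroxylase gene that fell by 2.09 ± 0.25, held 2. Of 24 promoters found for 18 of the hypoxia genes, 14 held the core (58.3%), as did 18 of 37 glycolysis promoters (48.6%), against 25.8% of the 11293 promoters of all tested genes matched. A match is a description of letters and not a bound site. The shares cover list members whether called or not, so they describe the lists and not the DFMO effect.

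More respiratory chain genes rose than fell, and more fatty acid oxidation genes fell than rose. Of 72 respiratory chain and ATP synthase genes, 38 were higher (22 without animal 3) and 7 lower, with a median of 0.26. Cycs, cytochrome c, went from 268, 260.3 and 287 to 604, 514 and 565 CPM (1.04 ± 0.09) and Atp5g1, of the ATP synthase ring, from 141, 138 and 154 to 276, 232 and 238 CPM (0.79 ± 0.09). Against this, the complex I genes Ndufv3 (-1.15 ± 0.11) and Ndufa6 (-0.86 ± 0.10) fell. The 32 genes of the TCA cycle and its feeders counted 9 higher (5 without animal 3) and 11 lower (7 without animal 1). Idh3a was higher (0.44 ± 0.08). Got1, the cytosolic aspartate aminotransferase, was lower (383, 360.3 and 322 to 181, 155 and 194 CPM, -1.01 ± 0.10). Fatty acid oxidation genes were lower in 14 of 23 cases (9 without animal 2) and higher in 1, Hadhb, with a median of -0.42. Eci2 fell by 0.90 ± 0.09, from 133, 131 and 119 to 71.8, 64.7 and 68.6 CPM, Hadh by 0.82 ± 0.09 and Acaa2 by 0.83 ± 0.10, all 3 enzymes of beta-oxidation.

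Lipid synthesis genes were mixed. Fasn, the fatty acid synthase, went from 118, 100.4 and 135 to 330.3, 283 and 245 CPM (1.28 ± 0.18), and Elovl1, which lengthens fatty acids, rose by 0.81 ± 0.09, while Acss2, which makes acetyl-CoA from acetate, fell by 1.96 ± 0.22, from 62.1, 51.9 and 45.6 to 13.8, 14 and 13.2 CPM. In all, 5 of 16 fatty acid synthesis genes were higher (Fasn, Elovl1, Acaca, Agpat5 and Fads1) and 3 lower (Acss2, Lpin1 and Elovl6; 5 lower without animal 3 and when fitted on the 2 groups alone). Of 25 cholesterol synthesis genes, 3 were higher (Scap and Sc5d among them; 5 without animal 3, 6 on log2 TPM) and 7 lower (4 without animal 2). Scap, the sterol sensor, rose by 1.08 ± 0.09, from 45.5, 49.1 and 48.6 to 101, 104 and 97.5 CPM, with Tm7sf2 (-1.14 ± 0.24) and Stard4 (-0.72 ± 0.16) lower.

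Stress programmes differed from each other. Of 34 genes of the amino acid response driven by ATF4, 15 were lower and 7 higher. Pck2, a mitochondrial enzyme that makes phosphoenolpyruvate, was at 225, 218 and 222 CPM in vehicle and 58.9, 65.3 and 51.9 CPM with DFMO (a fall, -1.92 ± 0.14), Ddit3 (CHOP) fell by 1.71 ± 0.17, from 107, 127 and 117 to 33.4, 42.7 and 31.1 CPM, and Psph, of serine synthesis, by 0.72 ± 0.08. Among the 7 higher genes of this list, named after their values were seen, were 5 carriers of amino acids, Slc7a5, Slc1a5, Slc7a11, Slc38a2 and Slc3a2, while the carrier gene Slc7a3 fell. In the unfolded protein response, 11 of 24 genes were higher (7 without animal 1) and 4 lower (Derl3, Ddit3, Xbp1 and Sel1l). The chaperone genes Calr (269.9, 239 and 251 to 458, 378 and 389 CPM, 0.69 ± 0.09) and Dnajc3 (0.57 ± 0.12) rose, and Derl3 fell by 2.84 ± 0.49 at a low level. The oxidative stress list counted 5 higher (Gpx1, Prdx1, Slc7a11, Txn1 and Prdx6; 9 on log2 TPM) and 7 lower of 27, with Gpx1 (1.12 ± 0.12) and Prdx1 (0.81 ± 0.12), which remove peroxides, higher and Gpx4 lower (-0.70 ± 0.07). Autophagy and lysosome genes were lower in 13 of 40 cases and higher in 5 (Lamp1, Hexa, Atg5, Ctsb and Neu1; 3 without animal 3). Cd63, a tetraspanin of lysosomes, fell from 14.9, 14.5 and 12.2 to 0.576, 0.441 and 0.181 CPM (-5.11 ± 0.56), Gla, a lysosomal galactosidase, by 2.51 ± 0.28, and Gabarap, of autophagosomes, by 0.74 ± 0.10.

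Interferon response genes fell in many cases and rose in none. Of 35 tested genes, 19 fell (54.3%; 11 without animal 2) and none rose in edgeR's test (also none at an unadjusted p under 0.05, with DESeq2 or with limma), with a median of -1.79, or -1.57 with the 3 members that had no count in DFMO libraries (Ifit3, Oas1a and Oas2) set at their bound against a floor of 3 counts in the group. Oas3, an antiviral synthetase (chromosome 5, 120753098 to 120777661), was at 68.9, 55.3 and 59.3 CPM in vehicle and 3.69, 2.74 and 2.72 CPM in DFMO libraries and fell by 4.34 ± 0.34 (adjusted p = 1.3e-07). Trim30a went from 74.1, 93.3 and 72.7 to 5.41, 10.9 and 9.87 CPM (-3.18 ± 0.27), and Stat2, which carries the type I interferon signal, from 83.9, 73.2 and 67.4 to 28.2, 22 and 25.3 CPM (-1.57 ± 0.17). Ifih1, a sensor of viral RNA, fell by 2.17 ± 0.31. Ifit1, at 14.8, 36.5 and 22.7 CPM in vehicle and 1.04, 0.971 and 0.0905 CPM with DFMO, fell by 5.16 ± 1.04 but was not called without animal 2 (-5.16). Ifit3 was at least 30.6-fold and Oas1a at least 17.3-fold lower by counts, which covers counting error only. These families hold similar genes whose reads the counting may have shared.

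The promoters of interferon-induced genes often hold an element bound by STAT and IRF factors. The members with the smallest p whose promoter held GAAA, any 2 bases and GAAA again are shown as above, with the match on either strand in capitals.
Oas3, chr5:120777610-120777909, minus strand: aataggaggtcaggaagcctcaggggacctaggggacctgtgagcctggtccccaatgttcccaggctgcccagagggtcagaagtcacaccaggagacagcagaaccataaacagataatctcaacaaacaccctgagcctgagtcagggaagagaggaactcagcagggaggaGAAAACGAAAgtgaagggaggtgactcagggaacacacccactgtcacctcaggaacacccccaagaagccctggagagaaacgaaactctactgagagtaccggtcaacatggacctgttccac
Stat2, chr10:128270248-128270547, plus strand: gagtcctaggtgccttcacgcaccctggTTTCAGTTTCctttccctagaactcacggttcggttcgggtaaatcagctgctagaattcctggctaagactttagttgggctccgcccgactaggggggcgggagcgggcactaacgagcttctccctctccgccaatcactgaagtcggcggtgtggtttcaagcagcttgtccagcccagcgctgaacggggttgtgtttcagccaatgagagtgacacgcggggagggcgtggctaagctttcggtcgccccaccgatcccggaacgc
Of 34 promoters found for 27 of the interferon genes, 17 held it (50%), against 3.09% of the 11293 promoters of all tested genes matched and none of 45 ribosome biogenesis promoters. The E-box CACGTG, the site of Myc and related factors, was in 7 of those 45 (15.6%) and in 10.0% of all. As above, these shares cover list members whether called or not and do not describe the DFMO effect.

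Antigen presentation genes were mostly lower. Of 20 genes of MHC class I and antigen processing, 14 were lower (70%) and 1, the chaperone gene Calr, higher, with a median of -0.48. The proteasome activator genes Psme1 and Psme2 fell by 0.98 ± 0.08 and 0.68 ± 0.08, Psme1 from 308, 319 and 294 to 172, 140.3 and 157 CPM, and Psmb9, of the immunoproteasome, fell by 1.09 ± 0.13, from 96.6, 86.3 and 89.8 to 45.6, 40.9 and 41.9 CPM. H2-Q10, a secreted class I molecule with near-identical neighbours among which reads may be shared, went from 76.9, 70.5 and 52.3 to 2.07, 3.53 and 5.25 CPM (a fall, -4.17 ± 0.31). The class II gene H2-Ab1, a marker of myeloid and B cells, went from 147, 139 and 118 to 9.21, 16.3 and 23.7 CPM (-3.02 ± 0.26), while Cst3, the other abundant gene of the myeloid list, was not called (123, 119 and 103 and 116, 105 and 110.2 CPM, -0.06 ± 0.09).

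Chromatin genes moved in both directions. Of 23 tested JmjC genes, which encode oxygen-dependent demethylases and relatives, 7 were lower (3 without animal 2) and 1, Kdm8, higher (2 without animal 1, none without animal 2, 3 on log2 TPM), with a median of -0.19. Kdm6b and Kdm6a, which remove the repressive mark H3K27me3, were not called, with Kdm6b at 51, 49.3 and 45.2 CPM in vehicle and 49.1, 47.3 and 46.6 CPM with DFMO (-0.02 ± 0.13) and Kdm6a at 0.02 ± 0.17. Kdm5b, which removes an active promoter mark, fell by 1.10 ± 0.16, from 65, 61.9 and 57 to 27.2, 22.9 and 35.7 CPM, and Kdm7a by 0.75 ± 0.16. Of 37 genes of histone methylation and acetylation and of DNA methylation, 15 were higher and 7 lower. Dnmt3a, which writes new DNA methylation, went from 26.4, 28.8 and 37.6 to 71.8, 68.3 and 75.5 CPM (1.21 ± 0.12), while Tet2, which starts its removal, went from 139.9, 139.5 and 108 to 54.2, 49.8 and 55.9 CPM (-1.28 ± 0.14). Hdac7, a class II deacetylase gene, fell by 1.01 ± 0.12.

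Several of the largest changes lay outside the gene lists. Chst2, a sulfotransferase gene for selectin ligands (chromosome 9, 95399292 to 95406722), was at 1.59, 1.75 and 2.8 CPM in vehicle and 35.8, 35.9 and 43.8 CPM in DFMO libraries (4.20 ± 0.24, adjusted p = 6.4e-11). Lrrc66, a gene of a leucine-rich repeat protein, went from 1.1, 0.655 and 1.31 to 17, 25.9 and 15 CPM (4.21 ± 0.63), and the homeobox gene Lhx6 from 0.854, 1.2 and 1.66 to 11.6, 15 and 12.5 CPM (3.36 ± 0.74). These 3 genes were near or below 3 CPM in every vehicle library and above 11 CPM in every DFMO library. Selenbp1, a methanethiol oxidase (chromosome 3, 94933056 to 94944758), went from 90.2, 79.4 and 67 to 1.27, 2.38 and 2.99 CPM (a fall, -5.12 ± 0.28). Itga7, an integrin chain, fell by 4.69 ± 0.54, from 133, 106 and 91.3 to 0.346, 5.03 and 6.88 CPM, and Tg, the thyroglobulin gene, by 4.03 ± 0.49, from 94, 104 and 111 to 4.03, 3.09 and 11.5 CPM. Pygl, which releases glucose from glycogen, fell by 4.56 ± 0.37, from 36.7, 34.1 and 38.3 to 1.04, 0.882 and 2.63 CPM.

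The response of Th17n cells was set against that of the other lineages of the same animals by testing the difference between DFMO effects. Against Th17p cells 574 genes differed (4.98%), 303 with a more positive effect in Th17n cells (2.63%) and 271 with a more negative one (2.35%). The count fell to 97, 27 and 331 without animals 1, 2 and 3. Il17a fell in Th17p cells, from 345, 530.4 and 359 to 26, 10.2 and 16.8 CPM (-4.57 ± 0.55), and the difference of 3.63 ± 0.69 to the Th17n effect passed (adjusted p = 0.011). It was not called without animal 1 (4.14), animal 2 (3.56) or animal 3 (2.99). Il10 was low in Th17p cells, at 0.77, 2.79 and 1.29 CPM in vehicle and 0.67, 0.0705 and 0.681 CPM in DFMO Th17p cells (-1.82 ± 0.69), and its effect in Th17n cells was 4.80 ± 0.87 more positive (adjusted p = 0.0039; not called without animal 2, 3.28). Frmd4a, a scaffold gene of epithelial polarity, rose in Th17n cells, from 2.32, 2.95 and 2.45 to 11.7, 13.2 and 12.5 CPM, and fell in Th17p cells (-1.39 ± 0.42; difference 3.67 ± 0.56, adjusted p = 0.00093; not called without animal 2, 3.42). Gcnt2, a glycosyltransferase gene, was 4.71 ± 0.80 more positive (adjusted p = 0.0049), with 47, 39.1 and 39.1 CPM in vehicle and 59.8, 82.7 and 76.4 CPM in DFMO Th17n cells and 8.91, 7.9 and 8.91 CPM and 0.112, 0.987 and 0.425 CPM in Th17p cells (not called without animal 1, 4.55).

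Against iTreg cells 1396 genes differed (12.1%), 628 with a more positive effect in Th17n cells (5.45%) and 768 with a more negative one (6.66%). This split turned with the scaling, to 1509 and 451 without scaling factors and to 2190 and 407 on log2 TPM, where the median difference over all genes moved from 0.04 to 0.21 and 0.25. Without animals 1 and 2 the count was 388 and 277. Foxp3 differed: in iTreg cells it was at 516, 397 and 392 CPM in vehicle and 483, 476 and 274 CPM in DFMO libraries (-0.08 ± 0.28), so that its effect in Th17n cells was 3.18 ± 0.44 more positive (adjusted p = 0.00075; not called without animal 1, 3.13). The Foxp3 level of Th17n cells with DFMO stayed below every vehicle library of iTreg cells. Adm fell in Th17n cells and rose in iTreg cells, from 10.0, 13.2 and 7.16 to 31.9, 25.2 and 43.1 CPM (1.72 ± 0.29; difference -4.75 ± 0.47, adjusted p = 2.3e-06). Tgm1, a transglutaminase gene, fell in Th17n cells, from 73.1, 45.6 and 38.3 to 5.18, 5.65 and 5.34 CPM (-3.27 ± 0.28), and was at or below 1.1 CPM in all iTreg libraries (difference -3.41 ± 0.56, adjusted p = 0.00057). Its relative Tgm2 fell in both, from 1156, 959 and 892 to 202, 248 and 205 CPM in Th17n cells (-2.20 ± 0.31) and by more in iTreg cells (-6.10 ± 0.58; difference 3.90 ± 0.73, adjusted p = 0.0047; not called without animal 2, 4.003, or animal 3, 3.30). Timp1, Il24, Gcnt2 and Havcr1 also differed, but were at or near 0 CPM in vehicle iTreg cells (at most 1.38 CPM in any library). The Timp1 difference was not called without animal 1 (-5.35) or animal 2 (-4.40), that of Il24 without animal 2 (-4.18) and that of Gcnt2 without animal 1 (-3.08) or on log2 TPM (-0.77). The Havcr1 difference lost its call when animal 1 (-5.09) or animal 2 (-4.99) was left out, in either run alone (-3.82 and -4.88) or on log2 TPM (-0.33).

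**Figure D4:**
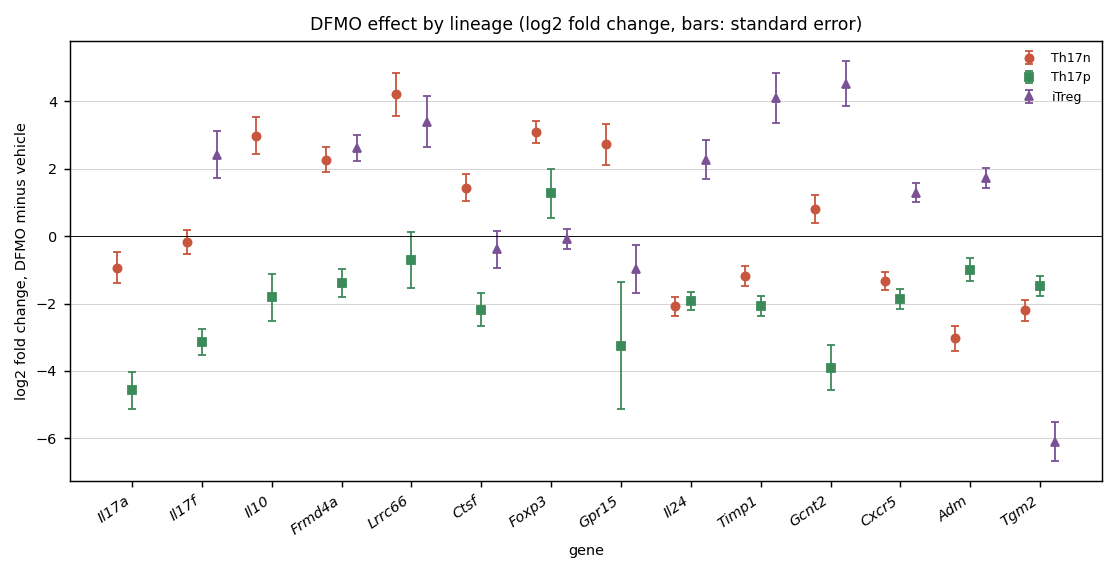
Log2 fold change of DFMO over vehicle (y axis) in Th17n (circles), Th17p (squares) and iTreg (triangles) cells for 14 genes, with bars of 1 standard error and n = 3 animals per group; the iTreg effects of Il17a and Il10, whose standard errors exceed 2, are left out. Il17a was -0.94 in Th17n and -4.57 in Th17p cells, and Foxp3 was 3.09 in Th17n and -0.08 in iTreg cells.

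By median, Th17n cells had the highest DFMO effect on ribosome biogenesis and the lowest on ribosomal proteins (the plot of ribosome genes by lineage). The called differences for ribosomal proteins lay mainly against iTreg cells. For ribosome biogenesis, 15 of 44 genes had a more positive effect in Th17n than in Th17p cells and none a more negative one (2 at an unadjusted p under 0.05, none with DESeq2 or limma), and the medians were 0.93 and 0.54. Against iTreg cells, whose median was 0.60, 9 were more positive and 1 more negative (24 and 0 without scaling factors). The count of 15 fell to 5, 0 and 6 without animals 1, 2 and 3, and that of 9 to 4 and 5 without animals 1 and 2. For the cytosolic ribosomal proteins, 72 of 79 rose in iTreg cells (median 0.45; 18.3% of all genes tested rose there) and 60 of 79 had a more negative effect in Th17n cells, none a more positive one (also none at an unadjusted p under 0.05, with DESeq2 or with limma). This count was 42 without scaling factors, 43 on log2 TPM, 24 without animal 1 and 2 without animal 2. Against Th17p cells 4 of 79 were more negative (from 0 to 15 over the alternatives). Nolc1 was 0.90 ± 0.13 more positive than in Th17p cells (adjusted p = 0.00049; not called without animal 2, 0.85). The Rpl24 effect in Th17n cells differed from that in iTreg cells by -0.56 ± 0.14 (adjusted p = 0.012; not called without animal 1, -0.55, or animal 2, -0.50).

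**Figure D5:**
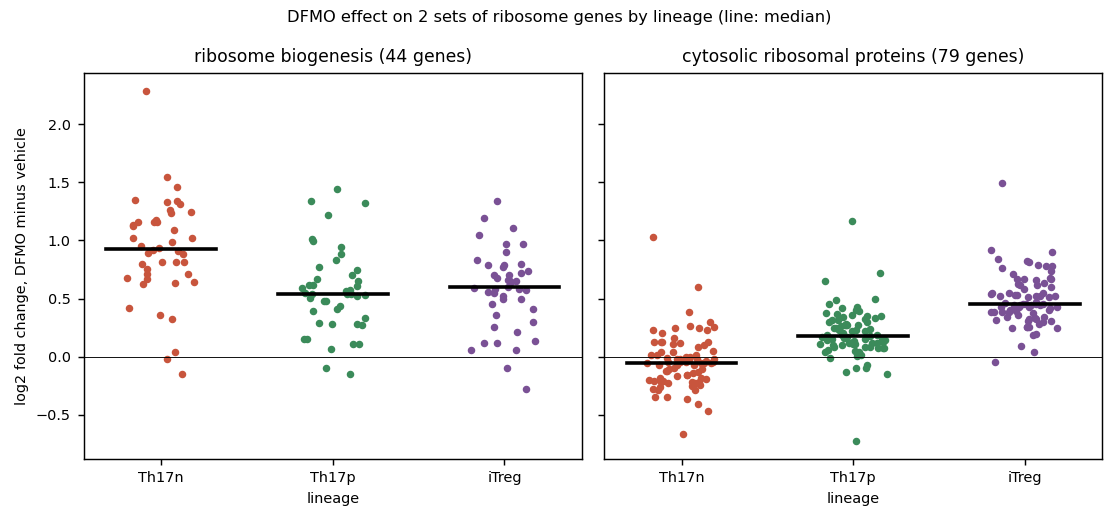
Log2 fold change of DFMO over vehicle (y axis) for 44 ribosome biogenesis genes (left) and 79 cytosolic ribosomal protein genes (right) in Th17n, Th17p and iTreg cells, 1 point per gene with a line at the median. Ribosome biogenesis medians are 0.93, 0.54 and 0.60 and ribosomal protein medians -0.05, 0.18 and 0.45 in that order.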

How the data were processed

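RNA-seq of sorted live cells gave 6 Th17n libraries, and 12 more of Th17p and iTreg cells from the same 3 animals. The authors deposited expected counts and TPM per gene and run, made with Bowtie2 and RSEM on GRCm38.p3 per the submitters' processing notes. Tool versions, annotation and strand were not given in the sources used here. Of the deposited expected counts, 12.2% were not whole, and each library's runs (chi-square per degree of freedom 1.20 to 1.41, against 3.64 to 8.96 between animals) were summed and rounded. The deposited TPM entered 1 alternative only: the listed genes held 73.1% to 75.1% of its scale in vehicle and 76.9% to 78.0% in DFMO libraries, so unlisted genes took the rest. Gene positions are GENCODE M21's (GRCm38; 20079 of 20817 symbols matched, 20049 with 1 location), and promoters RefSeq's (8832 of the 11526 tested genes).

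Genes were filtered by filterByExpr and fitted with edgeR 4.0.16 (TMM, robust quasi-likelihood, R 4.3.3) over all 18 libraries with 1 mean per lineage and treatment, so that the spread is shared between lineages. Calls took a Benjamini-Hochberg adjusted p under 0.05; SE is the log2 fold change over the square root of F. The fit was tested on simulated data. Fits with DESeq2 1.42.0 and limma 3.58.1, other scalings, no filter, single runs and each animal left out were alternatives. The labels give the animal of each library, so the numbers pair the samples, and blocking on the animal is an alternative (replicate block; correlations of same-animal deviations were 0.067, 0.059 and 0.12). Animals are the replicates.

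The genes named are the 10 largest increases and decreases (mean log2 CPM at least 2, same sign in all 3 animals), a fixed set of helper and polyamine genes, the members of each list that lead by p (at most 4) and any member a count of 5 or fewer refers to, and the 8 largest lineage differences each; others are marked, and a few that the rule names are not reported here. The members and lists were chosen with earlier results of these data known.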

Additional observations from a re-analysis of the deposited data

Results flagged for a closer look

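For 10 named genes the DFMO effect was called in Th17n cells and in another lineage with opposite signs, and the difference between the effects was itself called in edgeR's test. Relative to iTreg cells the difference (Th17n effect minus iTreg effect, log2) was -4.36 for Il24, -2.61 for Cxcr5, 1.29 for Cd69, -4.75 for Adm, -0.62 for Rpl17, -5.98 for Prf1, -0.85 for Cd3g and -5.27 for Timp1. Cxcr5, Cd69, Adm and Cd3g were called under every alternative, whereas Il24 was not called without animal 2 (-4.18), Rpl17 without animal 2 (-0.59), and Timp1 without animal 1 (-5.35) or animal 2 (-4.40). The Timp1 and Il24 levels of vehicle iTreg libraries were at most 1.18 CPM. Prf1 had 3 counts in the DFMO Th17n libraries together and 24 in vehicle, so its value rests on few counts. The Prf1 difference was not called without any 1 animal (-9.07 to -4.77) or on log2 TPM (-0.69). Relative to Th17p cells the difference was 3.67 for Frmd4a and 3.62 for Ctsf, neither of which was called without animal 2 (3.42 and 3.94). The Th17n effect itself was not called for Ctsf without animal 3 (1.05), Timp1 without animal 1 (-1.14) or Rpl17 without animal 2 (-0.26). That of Prf1 was not called without animal 1 (-2.47), without animal 3 (-2.04) or on log2 TPM (-0.39).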

How the results depend on the processing

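The main fit called 5352 genes in Th17n cells. Fits with 1 animal left out called between 3902 and 4397 genes, and the fit with the animal as a block (replicate block) called 5624. On log2 TPM 5183 were called, 2923 higher and 2260 lower, against 2626 and 2726. The count of genes whose effect differed from Th17p cells ranged from 27 to 331 with 1 animal left out, against 574, and was 783 with the block. The count against iTreg cells ranged from 277 to 1177 with 1 animal left out, against 1396, and was 1848 with the block and 2597 on log2 TPM. The split against Th17p cells was 397 more positive and 205 more negative effects when library totals alone set the scale and 305 and 166 on log2 TPM, against 303 and 271. Against iTreg cells it was 1509 and 451 by library totals and 2190 and 407 on log2 TPM, against 628 and 768. Under the other alternatives the 3 totals stayed within 1.5 times these, while more positive effects against Th17p cells numbered 472 when only the compared groups were fitted. Of 223 named genes none changed direction with its call; leaving out animals 1, 2 and 3 ended 10, 13 and 13 calls and added 0, 0 and 2. The block ended none and added 2, Sms among them, log2 TPM ended 4 and added 5, and fitting the 2 groups alone added 8. The cause was not tested, but fits without an animal hold fewer samples. Depth limits genes near 0 counts, such as Csf2 and Ifng, which were not tested.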

Other observations

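The genes described here lie outside the lists and were chosen after their values were seen, so that they say nothing of how any wider group behaved. Each had the same call under all 12 alternatives. Some that fell act on glycogen or glucose 6-phosphate. Gbe1, the glycogen branching enzyme, was at 76.9, 87.5 and 68.2 CPM in vehicle and 9.1, 8.74 and 14.2 CPM in DFMO libraries, a fall of 2.85 ± 0.19, and Ppp1r3b, which targets a phosphatase to glycogen, went from 223, 201 and 169 to 21.1, 23.5 and 36.5 CPM (-2.87 ± 0.29). Pgm2, a phosphoglucomutase gene, fell by 1.71 ± 0.12, and Slc37a4, the glucose 6-phosphate carrier gene, by 2.05 ± 0.12. In none of these genes did the groups overlap.

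Some that rose, chosen in the same way, act in pre-mRNA splicing or RNA export. Srsf3 went from 568, 521 and 601 to 1212, 1175 and 1132 CPM (1.06 ± 0.08), Srsf7 from 187, 195 and 187 to 444, 464 and 407 CPM (1.21 ± 0.09) and Sf3b4 from 52.3, 56 and 61.3 to 160.0, 156 and 145 CPM (1.44 ± 0.09). The helicase genes Ddx39 and Ddx39b rose by 1.30 ± 0.08 and 1.09 ± 0.07. Tfrc, the transferrin receptor gene, rose by 1.03 ± 0.11, from 531, 479.7 and 558 to 1054, 1093 and 1065 CPM. Among decreases, Nos2, the inducible nitric oxide synthase gene, was at 23.1, 20.0 and 18 CPM in vehicle and 1.61, 1.15 and 1.72 CPM with DFMO (-3.76 ± 0.38), Gatm, which uses arginine for creatine synthesis, fell by 1.79 ± 0.22, and Rnh1, the ribonuclease inhibitor gene, fell by 2.06 ± 0.08.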
